A study of Mus musculus with 6 samples.

Results

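The 10 genes described here, Glul, Oat, Rhbg, Cyp2e1, Gulo, Rgn, Lect2, Avpr1a, Axin2 and Tbx3, are known as genes of the hepatocytes that surround the central vein of the liver lobule. They were found by their symbols in a table of 24411 genes, and all 10 were present. The counts came from RNA-seq of whole livers at postnatal day 19, from 3 p62+/+ (wild-type) and 3 p62S351E/+ mice. In p62S351E/+ mice, one allele of Sqstm1, the gene of the autophagy adaptor p62, encodes Glu in place of Ser351, which mimics phosphorylation at that residue, and the other allele is wild-type. The knock-in is present in all tissues and was made by prime editing of C57BL/6N-derived embryonic stem cells, and the line was bred from a single chimeric male. The comparison asks how the livers with phosphomimetic p62, which binds the NRF2 repressor KEAP1, differed from wild-type livers.

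The liver lobule is divided into zones along the flow of blood from the portal vein to the central vein. Endothelial cells of the central vein release Wnt ligands and R-spondin, which stabilize β-catenin in neighboring hepatocytes, and β-catenin with TCF factors then switches on pericentral genes. Glutamine synthesis is restricted to the cells next to the vein, cytochrome P450 enzymes extend over a broader pericentral zone, and urea synthesis and gluconeogenesis prevail near the portal vein.

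All 5 hepatocyte markers (Alb, Apoa1, Ttr, Trf and Fgb) were detected, with between 7419 and 18580 summed counts per mouse. Each library held between 8696712 and 10341622 estimated counts, but Rn45s, Lars2 and Mir6236 took most of them, and between 134911 (p62S351E/+ mouse 1) and 315436 (p62S351E/+ mouse 3) counts were left for all other genes. Brain transcripts were present in 4 of the 6 libraries. Summed counts of the 10 brain markers, with neuronal, astrocyte and myelin genes, ranged from 2273 to 2595 for the p62+/+ genotype and were 2440 in p62S351E/+ mouse 3, but 30 and 9 in p62S351E/+ mice 1 and 2. Xist, the RNA of the inactive X chromosome, had 70.8, 1505 and 1071 counts for p62+/+ against 1, 0 and 1537 for p62S351E/+, and the labels give no sex. Because p62S351E/+ mouse 3 alone of its genotype resembled p62+/+ mice in these transcripts, its values are given for each of the 10 pericentral genes. The counts of genes that passed the thresholds are also given without it. Brain transcripts were then few in every p62S351E/+ mouse left and abundant in every p62+/+ mouse. Genotype and brain transcripts cannot be told apart in those fits.

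Avpr1a was the 1 pericentral gene called lower in p62S351E/+ livers, with 3 counts in all against 49 in p62+/+ livers, and it was abundant enough to be tested only through the p62+/+ mice. Glul was at 40.2% of the mean of p62+/+ livers and lay below all p62+/+ mice in each p62S351E/+ mouse, but did not pass the threshold over all genes. The remaining genes tested, Cyp2e1, Oat, Gulo, Rgn and Lect2, had mean levels between 85.8% and 121% of p62+/+ livers, with overlapping groups. Calls required both a Benjamini-Hochberg adjusted p under 0.05 from edgeR's quasi-likelihood test and a log2 fold change beyond 1 in either direction. Of the 10 genes, 7 had enough counts to be tested, while Rhbg, Axin2 and Tbx3 did not. With these 6 mice, 1 gene was called lower and 0 were called higher. Among all 5945 genes tested, 0.0841% were called lower and 0.841% higher. At an unadjusted p below 0.05, 2 of the 7 (Avpr1a and Glul) were lower and 0 higher, beside 5.55% and 9.02% of all genes tested. The median log2 fold change of the 7 genes was -0.12, beside -0.03 for all genes tested, and the range was from -3.45 to 0.28. DESeq2 called 0 of the genes lower and 0 higher, beside 0.124% and 1.02% of all genes with an adjusted p. limma-voom likewise called 0 and 0, beside 0.219% and 2.05%. Permuting genotypes exactly over 6 mice gives a two-sided p of 0.1 at the least, so single genes were tested only in fits across all genes.

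**Figure D1:**
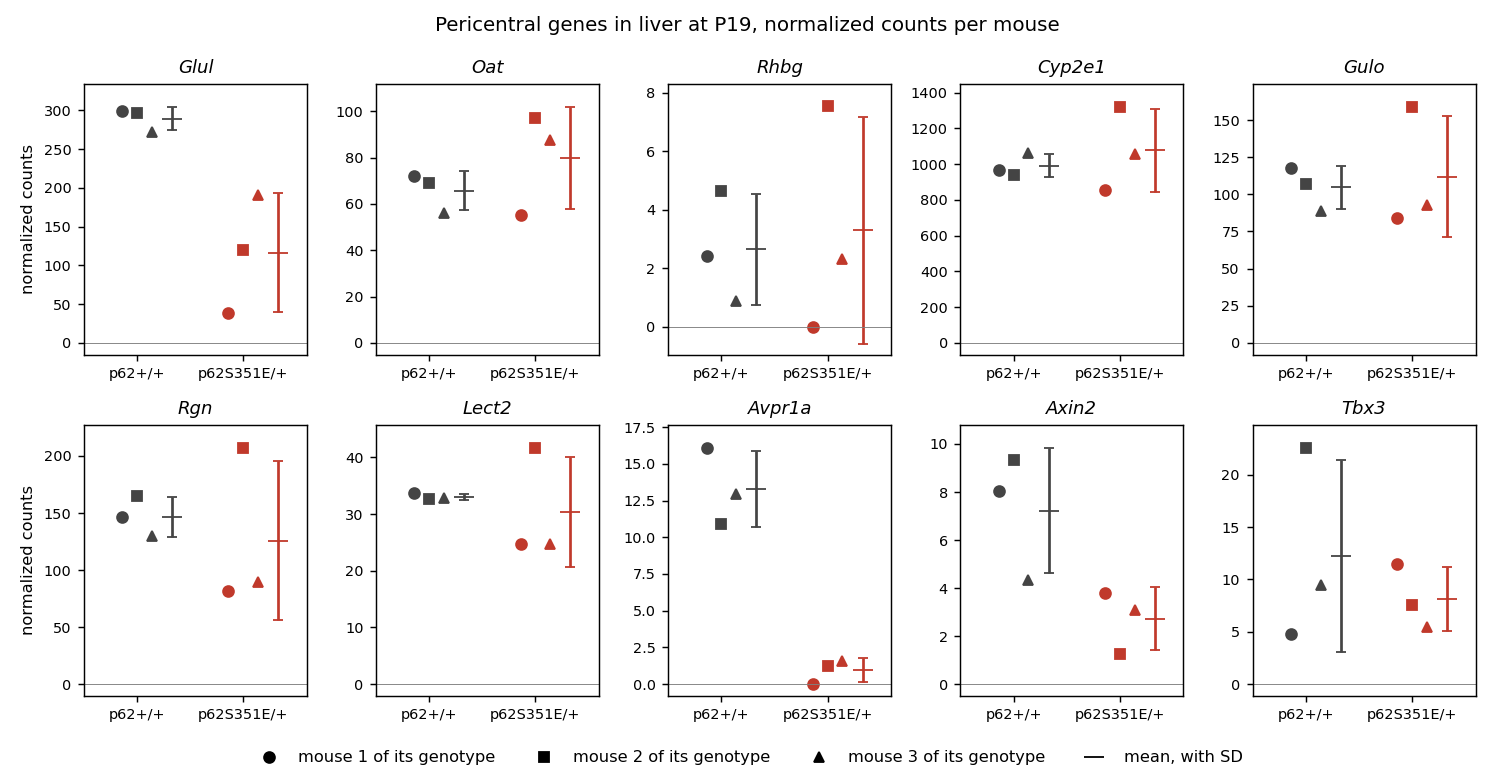
Normalized counts (y axes, linear, each with its own scale) of the 10 pericentral genes in each mouse of both genotypes, with the mean and SD of 3 mice. The p62S351E/+ mice lie below all p62+/+ mice for Glul, Avpr1a and Axin2, whereas the groups overlap for the other 7 genes.

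The 250 bases before the annotated start of transcription (RefSeq, GRCm38.p6, the build of mm10) were found for 6 of the 10 genes (Glul, Oat, Cyp2e1, Lect2, Avpr1a and Axin2). They were searched on both strands for CTTTGAA and CTTTGAT, forms of the motif that TCF factors bind, and for TGACNNNGC, the core of the antioxidant response element that NRF2 binds. A TCF motif was found before Cyp2e1 and Lect2, 2 of 6 promoters, and no antioxidant response element core was found (0 of 6). Of all 32851 promoter windows of this length, 7.48% held a TCF motif and 10.2% an antioxidant response element core. The sequences below are those of the 2 tested genes whose groups did not overlap, Avpr1a and Glul, and of the 2 genes with a TCF motif, which is in capitals. They run 5′ to 3′ on the strand of the gene.
Avpr1a, chr10:122448249-122448498, plus strand: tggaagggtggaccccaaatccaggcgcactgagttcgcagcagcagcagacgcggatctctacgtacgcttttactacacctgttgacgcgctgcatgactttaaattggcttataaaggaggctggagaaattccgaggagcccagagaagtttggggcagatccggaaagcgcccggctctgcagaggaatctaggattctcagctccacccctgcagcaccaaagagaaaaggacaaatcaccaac
Glul, chr1:153899679-153899928, plus strand: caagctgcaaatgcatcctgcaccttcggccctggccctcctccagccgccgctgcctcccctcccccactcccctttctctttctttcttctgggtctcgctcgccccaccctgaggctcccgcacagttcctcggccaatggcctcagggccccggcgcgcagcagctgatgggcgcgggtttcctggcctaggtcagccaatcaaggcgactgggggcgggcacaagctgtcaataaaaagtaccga
Cyp2e1, chr7:140763569-140763818, plus strand: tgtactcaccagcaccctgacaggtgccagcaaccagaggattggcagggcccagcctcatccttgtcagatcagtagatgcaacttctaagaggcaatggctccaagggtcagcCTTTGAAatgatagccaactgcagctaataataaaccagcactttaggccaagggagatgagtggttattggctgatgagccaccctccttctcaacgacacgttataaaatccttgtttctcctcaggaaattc
Lect2, chr13:56548539-56548788, minus strand: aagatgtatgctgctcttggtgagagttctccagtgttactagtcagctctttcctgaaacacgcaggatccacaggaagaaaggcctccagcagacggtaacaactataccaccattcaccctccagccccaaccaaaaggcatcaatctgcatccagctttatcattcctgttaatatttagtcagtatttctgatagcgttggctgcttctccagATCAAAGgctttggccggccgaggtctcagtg
The motif of Cyp2e1 begins 135 bases before the RefSeq start and reads in the direction of the gene. That of Lect2 begins 32 bases before the RefSeq start and reads CTTTGAT on the opposite strand. In GENCODE vM21 Cyp2e1 starts at 140763739, within its window, so part of that window lies inside the gene by that annotation. The windows of Avpr1a and Glul held neither motif within these letters, which says nothing about binding elsewhere.

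Avpr1a encodes the vasopressin receptor V1a, through which vasopressin raises calcium in hepatocytes. It lies on chromosome 10 of GRCm38 from 122448499 to 122453452. In the p62+/+ mice 20, 14 and 15 counts were found, and in the p62S351E/+ mice 0, 1 and 2. Scaled to normalized counts (counts divided by the relative TMM-scaled library size), these were 16.1, 10.9 and 13.0 against 0, 1.26 and 1.55. Every p62S351E/+ mouse was thus far below every p62+/+ mouse, mouse 3 with its brain transcripts included. In mouse 1, the shallowest library, a count of 0 still allows up to 3 counts, or 5.71 normalized counts, which is below the lowest p62+/+ mouse. The log2 fold change was -3.45 (standard error 0.70, 95% interval from -4.98 to -1.92, adjusted p = 0.0484, edgeR). From the pooled counts, 3 against 49, the ratio was 0.0866, with a 95% exact binomial interval from 0.0173 to 0.268 that covers counting error only. Since Avpr1a passed the filter on low counts through the p62+/+ mice alone, its test is limited to that extent. The call is close to the threshold. Leaving out single mice raised the adjusted p past 0.05 in 5 of 6 cases (from 0.0612 to 0.28), and it was 0.00247 without p62S351E/+ mouse 3. Over all 16 alternatives it ran from 0.00247 to 0.28, while the log2 fold change stayed between -4.02 and -3.11. The annotated antisense gene Gm48877 spans all 2670 exonic bases of Avpr1a, and the methods do not say whether strand was used in counting.

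Glul encodes glutamine synthetase, which binds the last ammonia of the blood into glutamine and is the classical marker of the innermost pericentral cells. It lies on chromosome 1 from 153899944 to 153909723. It had 299.3, 296.5 and 272.1 normalized counts in the p62+/+ mice (289 ± 15.0, SD, n = 3). The p62S351E/+ mice had 38.1, 119.7 and 191.3 normalized counts (116 ± 76.7, SD, n = 3). The groups did not overlap, and the p62S351E/+ mice differed among themselves by more than the p62+/+ mice did. Of the 7 pericentral genes tested, 2 (Avpr1a and Glul) had every p62S351E/+ mouse below all p62+/+ mice and 0 had every one above. The shares over all genes tested were 14.7% and 12.0%. Avpr1a passed the filter through the p62+/+ mice alone, so it could enter such counts only as a lower gene. The log2 fold change of Glul was -1.30 (standard error 0.50, 95% interval from -2.49 to -0.11), and its adjusted p was 0.312 (edgeR). Without p62S351E/+ mouse 3, its value of -1.86 (standard error 0.38, adjusted p = 0.00469, edgeR) lay past both thresholds. Then 2 pericentral genes, Avpr1a and Glul, were called lower and 0 higher, beside 15.3% and 5.21% of the 6390 genes tested in that fit. In that fit, the brain markers summed to between 2273 and 2595 counts in p62+/+ mice against 30 and 9 in p62S351E/+ mice. Genotype and brain transcripts therefore cannot be told apart in it.

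Glul is also strongly transcribed in astrocytes, as is Slc1a2, a glutamate transporter gene of astrocytes and pericentral hepatocytes. The 8 astrocyte markers summed to 555.3, 562.8 and 533.8 normalized counts in p62+/+ mice and to 89.5, 36.5 and 543.0 in p62S351E/+ mice. Gfap, Aldoc, Slc1a3 and Fabp7 were at 0 counts in p62S351E/+ mice 1 and 2. Gja1 had 2 and 0, S100b 1 and 0, Aqp4 27 and 3, and Slc1a2 17 and 26 counts in these mice. In p62S351E/+ mouse 3 the sum of the astrocyte markers lay within the range of p62+/+ mice, with Aqp4, Slc1a3 and S100b above and Slc1a2 below the ranges of the single genes, and its Glul level of 191.3 lay below all 3 of them. In p62S351E/+ mice 1 and 2 Glul and the summed astrocyte markers were both below the p62+/+ range, while Aqp4 in mouse 1, at 51.4 normalized counts, was above it. With the summed brain markers as a covariate, Glul was at -0.78 on the log2 scale (standard error 0.57, adjusted p = 0.902, edgeR). How much of Glul in the other 4 libraries came from brain transcripts was not tested. In RNA of whole liver, fewer pericentral cells and less RNA of these genes per cell cannot be told apart.

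**Figure D2:**
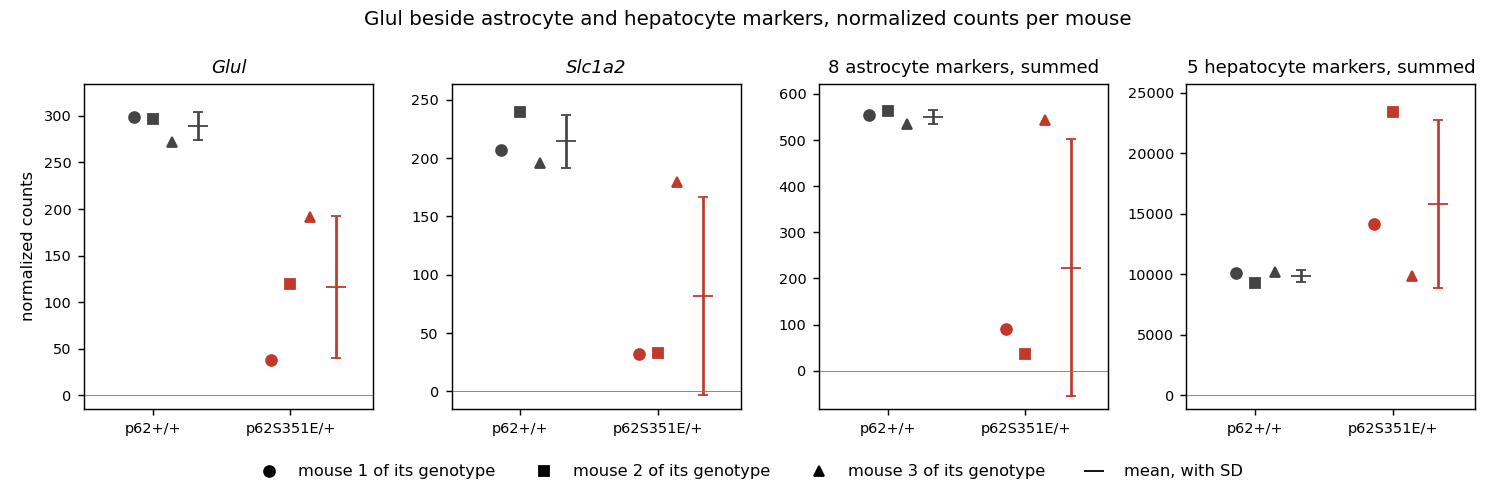
Normalized counts (y axes, linear, each with its own scale) of Glul, Slc1a2, the sum of 8 astrocyte markers, which includes Slc1a2, and the sum of 5 hepatocyte markers in each mouse, with the mean and SD of 3 mice per genotype. In p62S351E/+ mouse 3 (red triangles) the astrocyte markers reach 543.0, as in p62+/+ mice, while Glul is 191.3, below the lowest p62+/+ value of 272.1.

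Set against other transcripts of the same library, Glul amounted to 309.5, 315.4 and 255.7 counts per 1000 counts of Cyp2e1 in p62+/+ mice. In p62S351E/+ mice it amounted to 44.5, 90.8 and 180.8 per 1000. All 3 mice were below the p62+/+ range by this measure, which does not depend on the scaling of libraries. Of the summed counts of all 10 genes, Glul made up between 16.3% and 18.0% in p62+/+ mice against 3.30%, 6.11% and 12.3% in p62S351E/+ mice.

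Oat and Rhbg also serve nitrogen handling. Oat encodes ornithine aminotransferase, which turns ornithine into a precursor of glutamate. Oat had 72.2, 69.1 and 56.1 normalized counts in p62+/+ mice, against 55.2, 97.0 and 87.5 in p62S351E/+ mice, so the groups overlapped. The fitted log2 fold change of 0.28 (standard error 0.26) had a 95% interval from -0.30 to 0.87 and an adjusted p of 0.601 (edgeR). In GENCODE vM21 the annotated span of Fgfr2 covers Oat on the same strand. Rhbg, which encodes an ammonium transporter, had 3, 6 and 1 counts in p62+/+ mice against 0, 6 and 3 counts in p62S351E/+ mice. The ratio of the pooled counts was 1.27, with a 95% exact binomial interval from 0.458 to 3.49, so neither a fall to the lower bound nor a rise to the upper bound was detectable at this depth. The annotated span of the gene Gm38392, on the same strand, covers 1431 of the 1937 exonic bases of Rhbg.

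Cyp2e1, Gulo and Rgn represent oxidation and vitamin C synthesis. Cyp2e1 encodes the cytochrome P450 that oxidizes ethanol and acetaminophen and lies on chromosome 7 from 140763739 to 140774987. It had 967, 940 and 1064 normalized counts in p62+/+ mice (990 ± 65.2, SD, n = 3). In p62S351E/+ mice it had 855, 1318 and 1058 normalized counts (1077 ± 232, SD, n = 3), with 1 mouse below, 1 above and 1 within the p62+/+ range. Its log2 fold change of 0.12 had a standard error of 0.23 (adjusted p = 0.815, edgeR), and the 95% interval from -0.40 to 0.64 leaves out a change of 2-fold in either direction. With counts per 1000 counts of the 5 hepatocyte markers, Cyp2e1 was at 95.5, 101.0 and 104.5 in p62+/+ mice and at 60.5, 56.3 and 107.5 in p62S351E/+ mice. The hepatocyte markers themselves summed to 14130 and 23410 normalized counts in p62S351E/+ mice 1 and 2, above the range from 9309 to 10180 of p62+/+ mice, and to 9844 in mouse 3. Alb makes up much of this sum, with mean normalized counts of 6139 in p62+/+ and 10880 in p62S351E/+ mice. Apoa1 was at 1359 and 1319, so the sum, and Cyp2e1 set against it, do not stand for each of the 5 markers.

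Gulo encodes L-gulonolactone oxidase, the last enzyme of vitamin C synthesis in mice. It had 118.0, 107.1 and 89.0 normalized counts in p62+/+ mice against 83.8, 158.7 and 93.0 in p62S351E/+ mice. Rgn encodes regucalcin, the gluconolactonase that acts one step before Gulo. It had 146.1, 164.6 and 129.6 normalized counts in p62+/+ mice against 81.9, 206.6 and 89.1 in p62S351E/+ mice. For both genes mouse 2 was above and mouse 1 below all p62+/+ mice. The log2 fold change was 0.10 for Gulo (95% interval from -0.54 to 0.74, adjusted p = 0.885, edgeR). It was -0.22 for Rgn (95% interval from -1.03 to 0.59, adjusted p = 0.775, edgeR).

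Lect2 encodes a protein that hepatocytes secrete into blood and that attracts leukocytes. It had 33.7, 32.6 and 32.8 normalized counts in p62+/+ mice, against 24.8, 41.6 and 24.8 in p62S351E/+ mice. All p62S351E/+ mice were outside the narrow range of p62+/+ mice, but on both sides of it. The log2 fold change was -0.12 (standard error 0.27, 95% interval from -0.73 to 0.49, adjusted p = 0.844, edgeR).

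Axin2 and Tbx3 are direct targets of β-catenin. Axin2, a scaffold of the complex that degrades β-catenin, gives negative feedback on the pathway. It had 10, 12 and 5 counts in p62+/+ mice against 2, 1 and 4 counts in p62S351E/+ mice. In normalized counts this was 8.03, 9.32 and 4.32 against 3.81, 1.26 and 3.10, without overlap of the groups. From the pooled counts, 7 against 27, the ratio was 0.367, with a 95% exact binomial interval from 0.135 to 0.863 that covers counting error only. With no filter on low counts, Axin2 was fitted at -1.42 on the log2 scale (standard error 0.59, adjusted p = 0.453, edgeR). Tbx3, a transcription factor of pericentral hepatocytes, had 6, 29 and 11 counts in p62+/+ mice against 6, 6 and 7 counts in p62S351E/+ mice. Its pooled ratio of 0.584 had an interval from 0.323 to 1.02, and 29 of the 46 counts of p62+/+ mice came from mouse 2. With no filter, Tbx3 was fitted at -0.69 on the log2 scale (standard error 0.53, adjusted p = 0.706, edgeR). Antisense genes overlap 218 exonic bases of Axin2 (Gm11670) and 697 of Tbx3 (Tbx3os1).

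**Figure D3:**
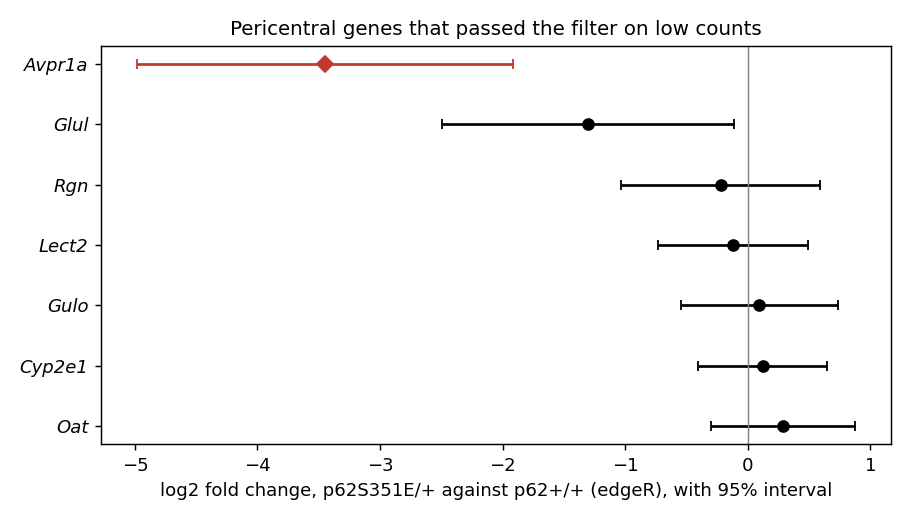
Log2 fold change of p62S351E/+ against p62+/+ mice (x axis) with its 95% interval from edgeR's quasi-likelihood fit, for the 7 pericentral genes tested. The diamond marks Avpr1a, past both thresholds at -3.45, and the intervals of the 5 genes from Rgn to Oat include 0.

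The p62S351E/+ mice differed from each other across these genes. Mouse 1 had the lowest normalized count of all 6 mice for 8 of the 10 genes, and mouse 2 the highest for 6 of them (Oat, Rhbg, Cyp2e1, Gulo, Rgn and Lect2). Summed over the 10 genes, the normalized counts were 1668, 1657 and 1671 in p62+/+ mice. They were 1154, 1959 and 1556 in p62S351E/+ mice, with 1 mouse above and 2 below the p62+/+ range. The share of Cyp2e1 in the summed counts ran from 56.7% to 63.7% in p62+/+ mice and from 67.3% to 74.1% in p62S351E/+ mice. Mouse 1 also had the fewest counts outside Rn45s, Lars2 and Mir6236, and the part of depth in its values was not tested.

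Levels of different genes were compared as normalized counts per kilobase of exon (GENCODE vM21). In p62+/+ livers Cyp2e1 stood first at 459 ± 30.2, followed by Rgn at 91.3 ± 10.9 and Glul at 87.1 ± 4.51 (SD, n = 3 each), and the ranges of Rgn and Glul overlapped. Gulo (46.3 ± 6.48), Lect2 (36.0 ± 0.635) and Oat (27.9 ± 3.61) came next, each with a range that did not overlap that of its neighbor. Avpr1a followed at 4.98 ± 0.976. Tbx3, Rhbg and Axin2 were at 1.85, 1.36 and 1.31 per kilobase, with overlapping ranges. In p62S351E/+ livers Glul was at 35.0 ± 23.1 per kilobase and stood after Gulo at 49.4 ± 18.1, with overlapping ranges, and Avpr1a was at 0.351 ± 0.309, with a range that overlapped those of Axin2 and Rhbg.

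Of 35 genes of the Wnt pathway (ligands, receptors, the destruction complex and nuclear partners), 14 had enough counts to be tested. With edgeR 0 were called higher and 0 lower, and DESeq2 and limma-voom likewise called 0. At an unadjusted p below 0.05, 0 were higher and 1 was lower, beside 9.02% and 5.55% of all genes tested. The median log2 fold change was -0.01, beside -0.03 over all genes tested. The lower gene was Ctnnb1, which encodes β-catenin itself, with 70.6, 73.0 and 80.3 normalized counts in p62+/+ mice against 45.7, 46.6 and 61.2 in p62S351E/+ mice (log2 fold change -0.54, standard error 0.21, adjusted p = 0.309, edgeR). Gsk3b, a kinase that marks β-catenin for degradation, also lay lower without overlap (log2 fold change -0.35, adjusted p = 0.504, edgeR). Tcf7l2, the main TCF factor of hepatocytes, and Lrp6, a Wnt coreceptor, lay higher without overlap (log2 fold changes 0.78 and 0.48, adjusted p = 0.353 and 0.37, edgeR). Of the 14 genes, 2 thus lay lower and 2 higher without overlap, beside 14.7% and 12.0% of all genes tested. Without p62S351E/+ mouse 3, 1 of 15 genes tested was called lower, beside 15.3% of all genes in that fit. This was Gsk3a (log2 fold change -1.41, adjusted p = 0.0471, edgeR), which was named after its value was seen. Gsk3a had 15.25, 11.64 and 17.27 normalized counts in p62+/+ mice against 7.62, 3.78 and 25.56 in p62S351E/+ mice. Mouse 3, the p62S351E/+ mouse with brain transcripts, was thus above all p62+/+ mice. Some of the Gsk3a counts were not whole numbers. In the fit without mouse 3, genotype and brain transcripts cannot be told apart. The part of brain transcripts in Gsk3a and Ctnnb1 was not tested. The ligand genes of the central vein were near the limit of detection. Wnt2 had 2 counts in one p62+/+ mouse and Wnt9b 3 and 1 counts in a pair of them, and both were at 0 in all p62S351E/+ mice. Rspo3 had 5, 4 and 3 counts in p62+/+ mice against 1, 1 and 4 in p62S351E/+ mice. Together with Thbd, these endothelial markers summed to between 2 and 16 counts per mouse, so a change in the source of Wnt signals was not detectable at this depth.

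A further 22 genes with pericentral expression were compared, 4 of which (Lgr5, Rnf43, Znrf3 and Notum) are also in the Wnt list. Of the 19 tested, 3 were called higher and 0 lower by edgeR, and 11 were higher and 2 lower at an unadjusted p below 0.05. The shares over all genes tested were 0.841% and 0.0841% for the calls, and 9.02% and 5.55% for the unadjusted p. DESeq2 called 0 and limma-voom 2 of them lower. The median log2 fold change was 0.77. The 3 higher genes were Gstm3, Gstm1 and Cyp2c37, with log2 fold changes of 4.32 (adjusted p = 0.0282), 3.59 (adjusted p = 0.00051) and 2.04 (adjusted p = 0.00913, edgeR). Gstm1 and Gstm3 encode glutathione S-transferases, and Gstm1 is named as an NRF2 target in the study of these samples. The cause of the rise of either gene was not tested, so it is not taken as evidence for the pericentral list. The counts of Gstm3, Gstm1, Cyp2c37, Nr1i3 and Cyp3a11 were not whole numbers, so some of their reads were shared with other features, which were not identified. Genes further from 0 without overlap were Cyp7a1 (log2 fold change -1.72, adjusted p = 0.084, edgeR), the first enzyme of bile acid synthesis, and Nr1i3 (1.63, adjusted p = 0.131), the receptor CAR. Slc1a2 (-1.37, adjusted p = 0.421) and Cyp3a11 (-1.06, adjusted p = 0.109) also lay outside the p62+/+ range in each p62S351E/+ mouse. Without p62S351E/+ mouse 3, 7 of 20 genes tested were called higher and 2 (Cyp7a1 and Slc1a2) lower, beside 5.21% and 15.3% of all genes in that fit. Slc1a2 is also one of the astrocyte markers, and genotype and brain transcripts cannot be told apart in that fit.

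Of 15 periportal genes, 13 were tested. With edgeR 0 were called in either direction, although 12 of the 13 had log2 fold changes above 0 and 8 were higher at an unadjusted p below 0.05. Of all 5945 genes tested, 2856 lay above 0 and 9.02% were higher at that unadjusted p. DESeq2 called 1 and limma-voom 2 of them higher. Their median log2 fold change was 0.90. Pck1, which encodes an enzyme of gluconeogenesis, had 576, 285 and 395 normalized counts in p62+/+ mice against 1264, 1392 and 847 in p62S351E/+ mice (log2 fold change 1.48, standard error 0.32, adjusted p = 0.0878, edgeR). Arg1, the arginase of the urea cycle, had 110, 143 and 131 normalized counts against 288, 381 and 208 (log2 fold change 1.19, standard error 0.26, adjusted p = 0.0991, edgeR). Aldh1b1, an aldehyde dehydrogenase gene, Hal, the histidine ammonia-lyase gene, and Hsd17b13, a gene of a lipid droplet protein, had log2 fold changes of 1.30, 1.05 and 1.03 and groups that did not overlap, with adjusted p between 0.138 and 0.26 (edgeR). Without p62S351E/+ mouse 3, 7 of 13 periportal genes were called higher and 0 lower, beside 5.21% and 15.3% of all genes in that fit. In mouse 3 itself, the median difference from the p62+/+ mean, on the scale of log2(normalized count + 1), was 0.57 for the periportal genes and -0.40 for the 7 pericentral genes. It was 1.04 and -0.40 in mouse 1, and 1.04 and 0.41 in mouse 2.

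**Figure D4:**
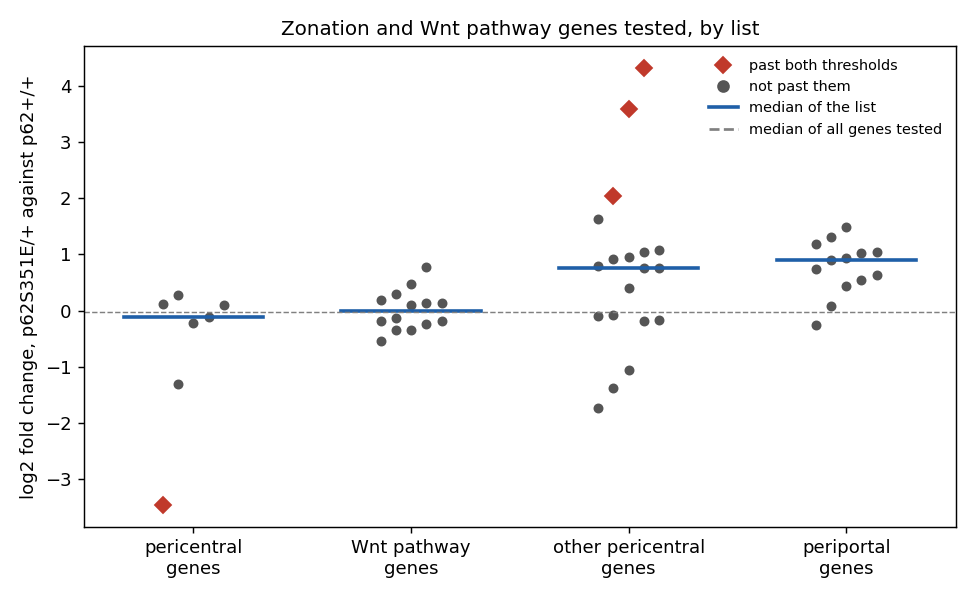
Log2 fold change of p62S351E/+ against p62+/+ mice (y axis) for each gene tested in the 4 lists (x axis), with the median of each list (blue line) and of all genes tested (dashed line). The medians were -0.12, -0.01, 0.77 and 0.90 from left to right, and the diamonds are Avpr1a below and Cyp2c37, Gstm1 and Gstm3 above.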

How the data were processed

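Total RNA of 6 livers was depleted of ribosomal RNA and sequenced as single-end reads. The authors trimmed reads with Trim Galore, mapped them to mm10 with STAR and deposited expected counts per gene from RSEM, without normalization. Versions, the gene annotation and the strand setting are not given in the sources used here. Genotypes and replicate numbers came from the sample labels. Nothing says whether the mice were littermates. Of the nonzero values 6.45% were not whole (tolerance 1e-6), and all were rounded for testing. The counts of the 10 pericentral genes were whole.

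Genes were filtered with filterByExpr (minimum count 10), scaled by TMM and tested in edgeR 4.0.16 by the quasi-likelihood method (legacy set to FALSE, robust) in R 4.3.3, with Benjamini-Hochberg adjustment over 5945 genes. Standard errors were taken from the fold change and the F statistic (its size over the root of F), and 95% intervals use the degrees of freedom of that test. Alternatives used DESeq2 1.42.0, limma 3.58.1, other scalings, no filter, a replicate block, covariates and each mouse left out. The edgeR, DESeq2 and limma-voom tests were checked on simulated counts. Total counts and counts outside Rn45s, Lars2 and Mir6236 set the precision, and exact binomial intervals and floors of 3 counts cover counting error only.

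The pericentral genes, the other lists and the tests were chosen with earlier results of these data known, and Xist as a covariate was added after the data had been seen. Of the other lists, the genes named were those called and up to 5 more with the largest change and no overlap between genotypes. One gene that this rule names is not reported here. Positions and exon lengths are from GENCODE vM21 (GRCm38). Measurements other than RNA-seq were not analysed here.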

Additional observations from a re-analysis of the deposited data

How the results depend on the processing

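The number of pericentral genes called lower was 1 with all 6 mice and 0 with DESeq2, limma-voom, library size as the only scaling, the replicate block, the brain marker covariate and, added after the data had been seen, the Xist covariate. It stayed 1 with the legacy method, DESeq2 size factors in edgeR, a scaling without Rn45s, Lars2 and Mir6236, no filter, and adjusted p alone. With one mouse left out it ran from 0 to 2. It was 0 without p62+/+ mouse 1, 2 or 3 and without p62S351E/+ mouse 1 or 2, and 2 without p62S351E/+ mouse 3. In the edgeR fits other than that without mouse 3, between 0.0153% and 0.135% of all genes were called lower. Their median log2 fold change of -0.12 moved to -0.80 with library size only, which moved that of all genes from -0.03 to -0.68, and to -0.49 with the brain marker covariate. With one mouse left out it ran from -0.41 to 0.02 and was above 0 without p62S351E/+ mouse 1 or mouse 3.

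Glul and Avpr1a stayed below 0 in all 16 alternatives. With library size only, Cyp2e1 (-0.51), Gulo (-0.57) and Oat (-0.30) changed sign. Gulo also did so with the brain marker covariate (-0.28), the Xist covariate (-0.16), without p62+/+ mouse 3 (-0.0008) and without p62S351E/+ mouse 2 (-0.23), where Cyp2e1 was -0.042. Lect2 changed sign without p62S351E/+ mouse 1 (0.0056) or mouse 3 (0.021), and Rgn without mouse 1 (0.018). With one mouse left out Cyp2e1 rose to at most 0.27 and Gulo to 0.27, Lect2 fell to -0.41 and Rgn to -0.77. The cause was not tested.

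Other pericentral genes called higher numbered 3, against 5 with limma-voom. Leaving out single mice gave from 1 to 7, the 7 without p62S351E/+ mouse 3. The number called lower was 0, against 2 with limma-voom, 2 with no filter, and between 0 and 2 when single mice were left out. Periportal genes called higher numbered 0, against 1 with DESeq2, 2 with limma-voom, 1 with no filter, and between 0 and 7 when single mice were left out. Wnt pathway genes called lower ran from 0 to 1 with one mouse left out. Of all genes, 0.841% were called higher in the main fit, 1.02% with DESeq2, 2.05% with limma-voom and 0.485% with no filter. With one mouse left out this share was between 0.245% and 0.437%, but 5.21% without p62S351E/+ mouse 3. The share called lower was 0.219% with limma-voom, 0.0614% with no filter and 15.3% without p62S351E/+ mouse 3.

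Same-numbered mice are not paired by the labels, and their deviations from the group means correlated at 0.07, -0.08 and 0.0006 over the genes tested. With the replicate block 18 of all genes were higher and 1 lower, against 50 and 5, and 0 pericentral genes were called lower (Avpr1a log2 fold change -3.47, adjusted p = 0.206, edgeR). Depth limits Rhbg, Axin2 and Tbx3, with at most 29 counts in any mouse.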

Other observations

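Markers of other liver cells were summed in each mouse as a description, with no test. For the 6 Kupffer cell markers, the normalized counts of p62+/+ mice ranged from 71.4 to 76.9 and those of p62S351E/+ mice from 89.1 to 110.4, without overlap. Single markers went both ways. Mean normalized counts in p62+/+ and p62S351E/+ mice were 21.8 and 14.7 for Clec4f, against 12.0 and 18.2 for Cd5l. For the 6 stellate cell markers, the ranges were 144.4 to 260.8 and 92.0 to 133.3, also without overlap. This sum includes 2 collagen genes, Col1a1 and Col3a1. Their mean normalized counts were 23.0 and 58.0 in p62+/+ mice against 7.32 and 14.8 in p62S351E/+ mice. Dcn, Lrat, Reln and Des were not examined singly, so the sum does not show a fall of all 6 markers. Of all single genes tested, 12.0% lay above and 14.7% below without overlap. The 7 endothelial markers (142.8 to 241.6 against 168.8 to 259.0) and the 5 cholangiocyte markers (22.5 to 82.1 against 22.5 to 70.5) overlapped. The 5 erythroid markers ranged from 135.9 to 194.3 in p62+/+ mice, above the range from 56.6 to 133.3 of p62S351E/+ mice. All 5 kidney markers were at 0 counts in each mouse, and the 4 skeletal muscle markers summed to at most 4 counts.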
